A study of Mus musculus with 12 samples.

Results

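The growth hormone axis was read out in mouse liver through 10 genes: the growth hormone receptor gene Ghr, the transcription factor genes Stat5a and Stat5b, the feedback inhibitors Socs2 and Cish, the circulating products Igf1 and Igfals, and the major urinary protein genes Mup1, Mup3 and Mup20. They are the rows of the deposited gene count table that carry these symbols, 10 of 43346 genes, and all 10 passed the filter on low counts that left 16283 genes for testing. Bulk RNA was sequenced from whole liver of mice kept for 24 weeks, from 12 weeks of age, on chow or on the FFC diet, which is rich in fat, fructose and cholesterol. Every mouse was S1pr1loxp/loxp, with both copies of the sphingosine-1-phosphate receptor gene S1pr1 floxed. Littermates without Cre served as wild type (WT), and knockouts (KO) were S1pr1loxp/loxp;Lyz2-Cre/0, so Lyz2-driven Cre deletes the gene in myeloid cells and not in hepatocytes. Each of the 4 groups, WT chow, KO chow, WT FFC and KO FFC, had 3 libraries, numbered here by their replicate labels. The labels give neither the strain nor the sex of the mice, and the controls lack the Cre transgene itself, so loss of S1pr1 and presence of Cre cannot be told apart.

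Growth hormone from the pituitary binds its receptor on hepatocytes, the receptor's associated kinase Jak2 phosphorylates STAT5 proteins, and these enter the nucleus and switch on target genes. Targets include Igf1, the circulating growth factor, and Igfals, the protein that holds it in a long-lived complex in plasma, as well as Cish and the SOCS genes, which damp the signal. In rodents the timing of growth hormone release differs between the sexes, and male-type pulses maintain a set of liver genes that includes many Mup genes, whose products are small carrier proteins excreted in urine.

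Total counts ran from 18873092 to 31154930 per library. Scaling factors from the trimmed mean of M-values (TMM) ran from 0.759 to 0.961 in the 6 chow libraries and from 1.09 to 1.25 in the 6 FFC libraries, so changes with diet depend on the scaling. Under plain total-count scaling the median change of all tested genes moved by 0.42 on the log2 scale in the WT diet comparison and by 0.48 in the KO one. Under offsets for GC content and length it moved by -0.23 and -0.26. In the knockout against wild type comparison on chow these shifts were -0.18 and 0.16. The share of calls that were higher on FFC, 52.2% in WT and 51.7% in KO, became 90.2% and 88.7% with total counts and 25.0% and 24.1% with GC and length offsets. For KO against WT on chow it was 55.1%, against 16.8% and 75.3%. S1pr1 itself ranged from 27.3 to 44.4 CPM (counts scaled to a common library size with the TMM factors) over the 12 libraries. No genotype difference was past the threshold (edgeR adjusted p = 0.971 on chow and 1 on FFC). Cells other than myeloid cells keep the gene by design. How much of its signal came from myeloid cells, and how far it was deleted there, was not tested. Y-linked Ddx3y had 587 to 1884 counts in every library and Xist 0 to 7. Hepatocyte markers, led by Alb, were abundant in all libraries. Of 10 markers of other tissues, Prss1, Kap and Umod, of pancreas and kidney, were at 0 in all 4 groups. All counts came from the others, Cela1, Cpa1, Adipoq, Acta1, Myh4, Hba-a1 and Hbb-bs, of pancreas, fat, muscle and blood. The 10 summed to 169 to 367 CPM in WT chow, 186 to 390 in KO chow, 104 to 222 in WT FFC and 139 to 189 in KO FFC. Of the 3 that were tested, 1 fell on FFC in WT and 2 in KO, where 8.03% and 12.8% of all tested genes fell. Over all tested genes KO chow replicate 1 stood apart, at -97.2 on the second principal component of log2 CPM against -10.1 to 40.2 elsewhere. Rank correlations between libraries of a group were lowest in KO chow, at 0.950 to 0.964. The labels give no batch, and p-values measure the spread between these libraries.

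STAT5 proteins bind the palindromic motif TTCNNNGAA, in which N is any base, and promoter windows are shown for the 2 genes that hold it. RefSeq windows of 300 bases, from 250 before to 50 after each annotated start (GRCm38.p6), were matched by symbol for 7 of the 10 genes, in 12 windows. Socs2, Mup1 and Mup20 had no entry. Over all 32851 windows, 8.30% held at least 1 match and 0.457% at least 2. The motif reads the same on both strands, and the matches do not overlap each other. The Cish window lies at chr9:107296409-107296708 on the plus strand and holds 2 matches, the first beginning at base 1 of the transcript and the second at base 12. Igfals has 3 windows on the plus strand, of which those at chr17:24877594-24877893 and chr17:24877981-24878280 hold 1 match each, beginning 236 and 58 bases before the start. Capitals mark the matches, 5′ to 3′:
Cish window: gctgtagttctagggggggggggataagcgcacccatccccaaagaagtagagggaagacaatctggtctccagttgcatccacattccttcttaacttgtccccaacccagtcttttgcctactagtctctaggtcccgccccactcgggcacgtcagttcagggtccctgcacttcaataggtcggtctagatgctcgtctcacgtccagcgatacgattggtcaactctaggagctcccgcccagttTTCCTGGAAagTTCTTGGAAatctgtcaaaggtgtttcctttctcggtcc
Igfals window 1: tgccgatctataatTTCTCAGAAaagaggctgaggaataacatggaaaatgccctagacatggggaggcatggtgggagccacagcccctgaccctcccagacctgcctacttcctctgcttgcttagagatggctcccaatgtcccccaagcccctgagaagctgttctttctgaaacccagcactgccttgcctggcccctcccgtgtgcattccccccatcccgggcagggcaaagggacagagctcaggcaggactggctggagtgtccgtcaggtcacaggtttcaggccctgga
Igfals window 2: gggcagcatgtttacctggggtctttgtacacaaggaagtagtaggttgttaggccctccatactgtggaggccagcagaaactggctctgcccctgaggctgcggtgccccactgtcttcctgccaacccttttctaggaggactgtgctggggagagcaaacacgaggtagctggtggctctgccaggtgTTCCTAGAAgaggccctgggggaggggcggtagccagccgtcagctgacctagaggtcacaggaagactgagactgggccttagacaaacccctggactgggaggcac
A match describes these letters and is no evidence of binding.

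Ghr, the receptor that hepatocytes use to sense the hormone (mm10 chr15:3317760-3583492), stood at 580, 661 and 546 CPM in the WT chow libraries and at 403, 454 and 395 CPM in the WT FFC libraries. These groups did not overlap, but the log2 change of -0.51 ± 0.18 (SE, n = 3 per group) missed the threshold (edgeR adjusted p = 0.0544). It passed with median-ratio size factors, with DESeq2 and with only the WT groups fitted (adjusted p = 0.0454, 0.0169 and 0.0209). In KO liver Ghr stood at 378, 478 and 565 CPM on chow and at 445, 509 and 546 CPM on FFC, and these groups overlapped. The KO log2 change was 0.08 ± 0.18 (edgeR adjusted p = 0.773). Its sign depended on the scaling: 0.56 with total counts and -0.57 with GC and length offsets, each past the threshold (edgeR adjusted p = 0.0127 and 0.00792), beside median shifts of 0.48 and -0.26 over all genes. The WT change kept its sign, at -0.09 with total counts and -0.83 with the offsets (edgeR adjusted p = 0.000799 for the second).

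Stat5a was the one gene of the 10 that rose. It stood at 6.10, 2.64 and 6.17 CPM in WT chow liver and at 13.8, 17.2 and 15.1 CPM in WT FFC liver, a 3.09-fold increase (log2 1.63 ± 0.31, edgeR adjusted p = 0.00215) that was past the threshold under all 14 alternatives tried. KO livers stood at 13.5, 7.80 and 6.59 CPM on chow and at 11.5, 11.3 and 14.9 CPM on FFC, groups that overlapped, and the KO log2 change was 0.43 ± 0.30 (edgeR adjusted p = 0.311). On chow every KO library was above every WT library, with a log2 difference of 0.91 ± 0.31 (edgeR adjusted p = 0.081). The difference between the 2 diet effects was -1.20 ± 0.43 on the log2 scale (edgeR unadjusted p = 0.0125, adjusted p = 0.2). The Stat5a row (mm10 chr11:100859351-100885169) overlaps Stat3, which had a mean count of 1910 against 302 for Stat5a. The counting strand was not stated, so some Stat5a reads may belong to Stat3, whose own log2 change was -0.14 in WT and -0.56 in KO.

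Stat5b, the form that carries most growth hormone signalling in mouse liver (mm10 chr11:100780731-100850724), was the more highly read of the pair per kilobase of transcript. Its level in WT chow liver was 5.63 CPM per kb against 0.697 for Stat5a. It ranged from 24.1 to 54.7 CPM over the 12 libraries, all 4 groups overlapped, and its log2 change was 0.30 ± 0.21 with diet in WT and -0.25 ± 0.21 in KO, neither past the threshold (edgeR adjusted p = 0.354 and 0.401).

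The feedback inhibitors were scattered within groups. Socs2, which blocks the activated receptor (mm10 chr10:95385362-95417180), stood at 6.58, 23.5 and 13.8 CPM in WT chow, 12.0, 13.5 and 6.26 in KO chow, 12.3, 7.30 and 3.38 in WT FFC, and 18.9, 17.2 and 2.90 in KO FFC. All groups overlapped, the libraries of 1 group differed by up to 6.51-fold, and the diet change was -0.93 ± 0.71 in WT and 0.29 ± 0.71 in KO on the log2 scale (edgeR adjusted p = 0.422 and 0.796). With 1 library left out the WT value ranged from -1.45 without WT FFC replicate 2 to -0.42 without WT chow replicate 3, and the KO value from -0.075 without KO FFC replicate 1 to 0.77 without KO FFC replicate 7. Without the filter on low counts the WT change passed (edgeR adjusted p = 0.00568). That fit had infinite median prior degrees of freedom, against 9.57 in the reported fit, so it gave little weight to the spread of single genes.

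Cish, an early STAT5 target that competes for the receptor (mm10 chr9:107296026-107302784), stood at 23.5, 8.50 and 9.48 CPM in WT chow liver and at 3.49, 2.11 and 2.47 CPM in WT FFC liver. Those groups did not overlap, yet the log2 change of -2.36 ± 0.96 missed the threshold (edgeR adjusted p = 0.131). It passed with only the WT groups fitted (edgeR adjusted p = 0.00175) and without the filter on low counts (edgeR adjusted p = 1.61e-13). As for Socs2, the fit without the filter gave little weight to the scatter of Cish within groups. In KO liver it stood at 6.66, 10.9 and 1.84 CPM on chow and at 28.3, 4.43 and 2.37 CPM on FFC, where the highest library, KO FFC replicate 1, was 11.9 times the lowest. The KO diet change was 0.84 ± 0.92 on the log2 scale and turned to -0.93 without that library. The difference of the diet effects, 3.21 ± 1.32, did not pass (edgeR unadjusted p = 0.0376, adjusted p = 0.28) and was 1.43 without it. The antisense gene Gm17041 overlaps Cish with a mean count of 47.1 against 213.

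Igf1 fell on the FFC diet in both genotypes. In WT liver it went from 611, 822 and 678 CPM on chow to 408, 353 and 361 CPM on FFC, a 0.531-fold level (log2 -0.91 ± 0.19, edgeR adjusted p = 0.00337). In KO liver it went from 552, 679 and 695 CPM to 394, 517 and 349 CPM, a 0.654-fold level (log2 -0.61 ± 0.19, edgeR adjusted p = 0.022). Every FFC library was below every chow library of its genotype. The WT call held under all 14 alternatives, with a log2 change from -1.22 to -0.48. The KO call was lost with total-count scaling (-0.13, edgeR adjusted p = 0.556) and without KO FFC replicate 1 (edgeR adjusted p = 0.0876) or replicate 7 (edgeR adjusted p = 0.105). It was also lost with only the KO groups fitted and with a block for replicate number (edgeR adjusted p = 0.0593 and 0.161). No genotype difference passed, on chow (edgeR adjusted p = 0.687), on FFC (adjusted p = 1) or in the size of the diet effect (0.30 ± 0.26 on the log2 scale, adjusted p = 0.595). The row spans mm10 chr10:87858265-87937042, and the antisense gene Igf1os inside it had a mean count of 55.2 against 12910.

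Igfals, the acid-labile subunit that binds Igf1 and its binding proteins in plasma (mm10 chr17:24878770-24882008), fell on FFC in both genotypes and was higher in KO than in WT liver on chow. WT livers stood at 69.0, 101 and 106 CPM on chow and at 53.2, 36.0 and 43.0 CPM on FFC (log2 -1.07 ± 0.25, edgeR adjusted p = 0.00864). KO livers stood at 248, 148 and 113 CPM on chow and at 47.4, 42.2 and 56.8 CPM on FFC (log2 -1.80 ± 0.26, edgeR adjusted p = 0.000206). On chow every KO library exceeded every WT library, with a log2 difference of 0.88 ± 0.25 (edgeR adjusted p = 0.0433). That call was lost without WT chow replicate 2, 3 or 4 or KO chow replicate 1 (edgeR adjusted p = 0.164, 0.0735, 0.066 and 0.167) and with total counts or GC and length offsets (edgeR adjusted p = 0.0833 and 0.257). It was also lost with only the chow groups fitted and with a block for replicate number (edgeR adjusted p = 0.164 and 0.135). The WT diet call was lost with total counts (edgeR adjusted p = 0.0847) and without WT FFC replicate 3 (edgeR adjusted p = 0.0507), while the KO call held under all 14 alternatives. The difference of the diet effects was -0.73 ± 0.36 on the log2 scale (edgeR unadjusted p = 0.0546, adjusted p = 0.321).

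**Figure D1:**
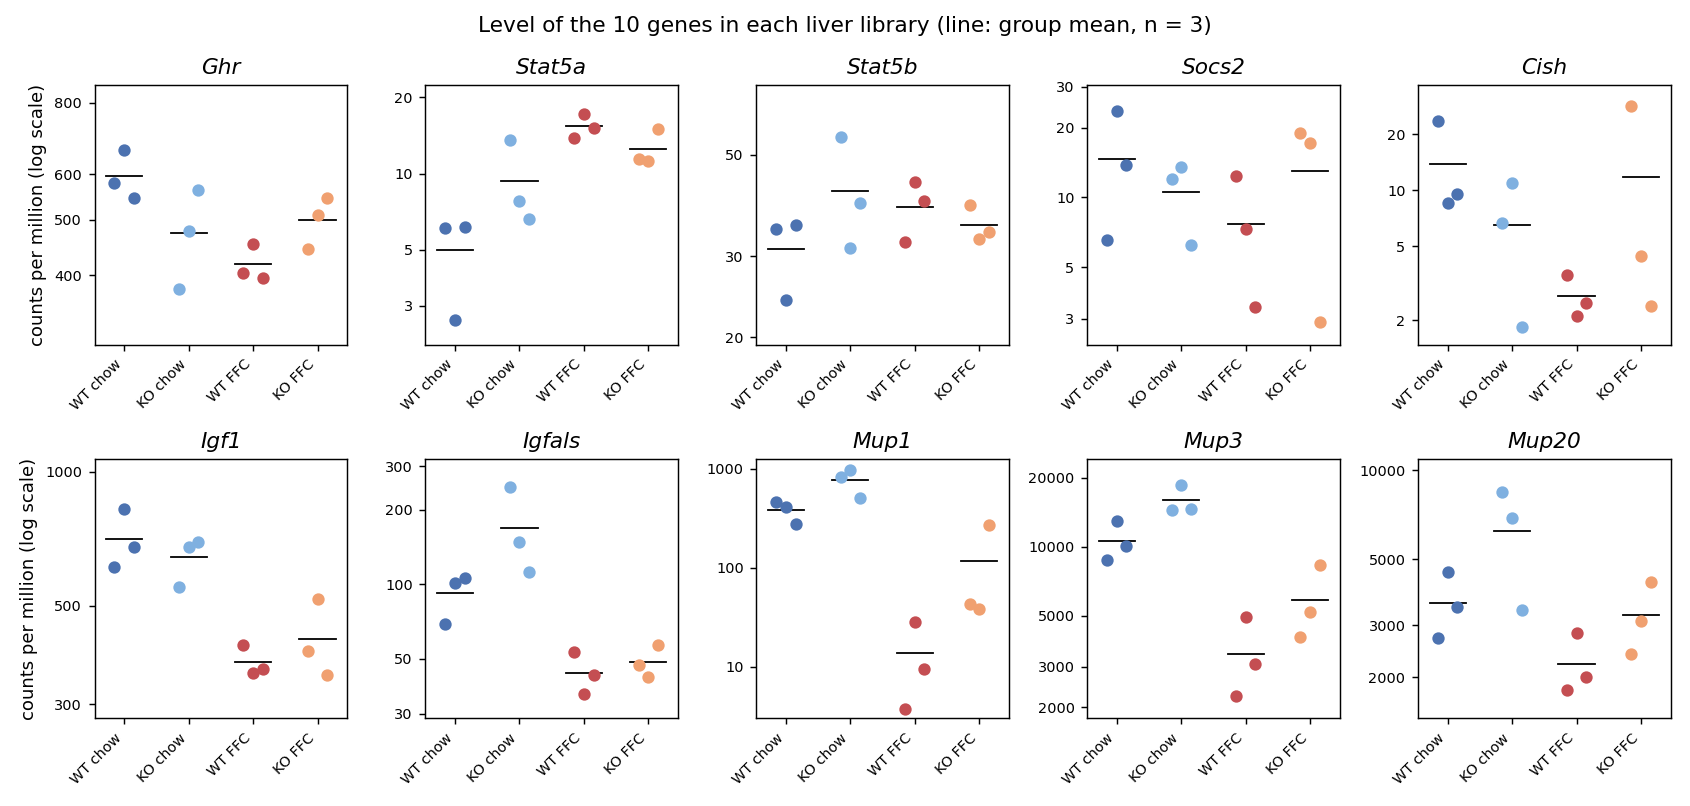
Level of each gene in CPM (TMM-scaled, log axis) in the 12 libraries, by group; each point is 1 library and the line is the group mean of 3. Igf1, Igfals, Mup1 and Mup3 lie lower in every FFC library than in every chow library of the same genotype, and Stat5a lies higher in WT FFC (13.8 to 17.2 CPM) than in WT chow (2.64 to 6.17 CPM).

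The major urinary protein genes lie in a cluster on chromosome 4 and share long stretches of sequence, so reads can be assigned to the wrong copy. In the GENCODE M21 transcripts, 97.8% of the 100-base windows of Mup3 occur in no other gene, against 61.2% for Mup20, 44.3% for Mup1 and 0% for Mup19. How the authors' counting treated reads with several matches was not stated.

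Mup3 (mm10 chr4:62083476-62087342) had the highest level of the 10 genes per kilobase, 9914 CPM per kb in WT chow liver. It stood at 8737, 12924 and 10105 CPM in WT chow and at 2239, 4971 and 3086 CPM in WT FFC (0.324-fold, log2 -1.63 ± 0.29, edgeR adjusted p = 0.00126). In KO liver it stood at 14480, 18623 and 14678 CPM on chow and at 4037, 5190 and 8350 CPM on FFC (0.368-fold, log2 -1.44 ± 0.29, edgeR adjusted p = 0.00186). The FFC groups lay wholly below the chow groups, and both calls held under all 13 alternatives. KO chow lay wholly above WT chow, with a log2 difference of 0.59 ± 0.28 that missed the threshold (edgeR adjusted p = 0.192).

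Mup1 (mm10 chr4:60498012-60501960) had the largest fitted change of the 10 genes. It stood at 458, 413 and 280 CPM in WT chow and at 3.77, 28.3 and 9.43 CPM in WT FFC, a 0.0361-fold level (log2 -4.79 ± 1.04, edgeR adjusted p = 0.0162). Without WT FFC replicate 2 or 4 the adjusted p was 0.0548 and 0.0731. KO livers stood at 838, 976 and 512 CPM on chow and at 43.3, 38.7 and 273 CPM on FFC, groups that did not overlap, with a log2 change of -2.71 ± 0.94 (edgeR adjusted p = 0.065). Without KO FFC replicate 7 this change was -4.24 and passed (edgeR adjusted p = 0.00712), and DESeq2 called it with all libraries (adjusted p = 0.0117). Every KO FFC library was above every WT FFC library. The log2 difference of 3.09 ± 0.96 did not pass (edgeR unadjusted p = 0.0115, adjusted p = 1) and was 1.56 without KO FFC replicate 7.

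Mup20, which encodes the male urinary pheromone darcin (mm10 chr4:62050234-62054158), passed the threshold in KO liver and missed it in WT, with a difference of the diet effects of -0.26 ± 0.42 on the log2 scale (edgeR adjusted p = 0.802). It stood at 2718, 4531 and 3463 CPM in WT chow and at 1813, 2819 and 2006 CPM in WT FFC, groups that overlapped (log2 -0.69 ± 0.30, edgeR adjusted p = 0.127). In KO liver it went from 8431, 6917 and 3361 CPM to 2394, 3098 and 4206 CPM (log2 -0.95 ± 0.30, edgeR adjusted p = 0.0273). The KO groups overlapped as well, through KO chow replicate 3 and KO FFC replicate 7. The KO call was lost without KO chow replicate 1 or 2 or KO FFC replicate 1 or 4 (edgeR adjusted p = 0.136, 0.0702, 0.121 and 0.0854), and with total counts or GC and length offsets. It was also lost with only the KO groups fitted and with a block for replicate number (edgeR adjusted p = 0.0674 and 0.0788).

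Counted together, 4 of the 10 genes fell and 1 rose on the FFC diet in WT liver, where 8.03% of all tested genes fell and 8.76% rose. The median log2 change of the 10 was -0.92 against 0.04 over all tested genes. Between the diets 7 were without overlap, as were 45.1% of all tested genes. In KO liver 4 fell and 0 rose, against 12.8% and 13.7% of all genes, and the median was -0.43 against 0.09. Of the 10, 4 were without overlap, against 39.5%. Between genotypes on chow, Igfals was the 1 call of 10, where 7.28% of all genes were called (1185 genes, and 34 without WT chow replicate 2), and 4 of 10 were without overlap against 20.6%. On FFC 0 of 10 were called by edgeR, where 0.0184% of all genes were (3 genes), and 2 had an unadjusted p under 0.05. Mup1 was the 1 member without overlap there, against 21.3% of genes. The test of the difference between diet effects called 0 of 10, with 3 at an unadjusted p under 0.05, where 0.0491% of all genes were called. DESeq2 called 0 of 10 in both of these comparisons too. The 2 diet comparisons and the 2 genotype comparisons share libraries and are not independent of each other.

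**Figure D2:**
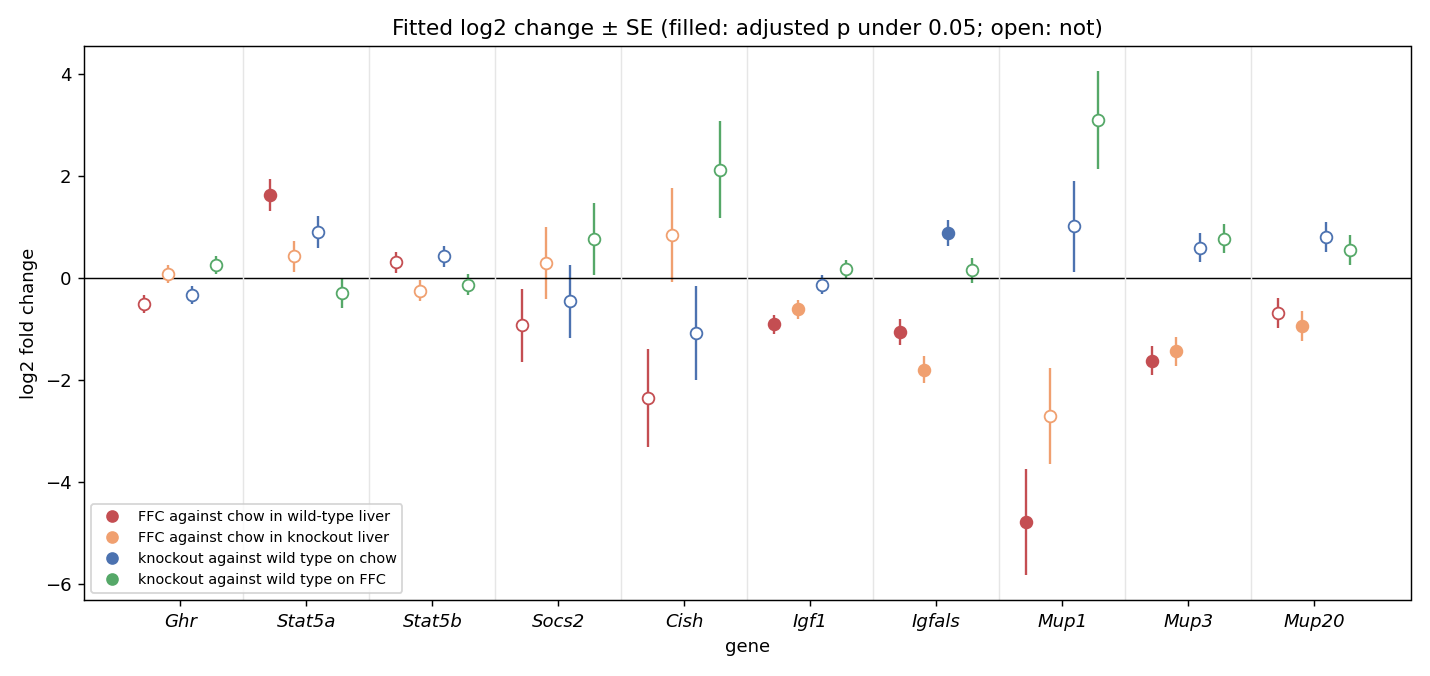
Fitted log2 fold change of each gene with its SE in 4 comparisons, 3 libraries per group; filled points have an edgeR adjusted p under 0.05. Igf1, Igfals and Mup3 have filled points below 0 in both diet comparisons, Stat5a a filled point above 0 in WT, and no point is filled for knockout against wild type on FFC.

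Across the whole Mup family the summed level fell on FFC in both genotypes. The table holds 51 Mup rows, 21 protein-coding genes and 30 pseudogenes, of which 35 were tested. Together they took 1.68% to 1.97% of all counts in WT chow libraries, 1.92% to 3.18% in KO chow, 0.579% to 1.20% in WT FFC and 0.883% to 2.19% in KO FFC. The summed rows fell by 1.54 ± 0.34 on the log2 scale with diet in WT (edgeR adjusted p = 0.00565) and by 1.42 ± 0.34 in KO (edgeR adjusted p = 0.00606). Reads exchanged between Mup rows leave this sum as it is, but reads dropped for matching several copies would be missing from it. Both calls held with each library left out, with median-ratio size factors and with total counts. Of the 21 protein-coding genes, 4 fell and 0 rose in WT (Mup1, Mup3, Mup12 and Mup21), with 20 log2 changes below 0 and a median of -1.79. In KO 6 fell and 0 rose, with 19 below 0 and a median of -1.44. Over all tested genes 8.03% fell in WT and 12.8% in KO. These counts moved with single libraries: 8 fell in WT without WT FFC replicate 3, and in KO 10 fell without KO FFC replicate 7, 3 without KO chow replicate 1 or 2, and 2 without KO FFC replicate 1 or 4. Mup12 had log2 changes of -4.26 in WT and -2.74 in KO (edgeR adjusted p = 0.00894 and 0.0286). Mup7, which ranked next after Mup3 and Mup20 in total count, stood at 2586, 2116 and 1812 CPM in WT chow and at 9.19, 339 and 34.4 CPM in WT FFC, without overlap and short of the threshold (log2 -4.09, edgeR adjusted p = 0.101).

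The share of the 2 genes with the highest counts in the family varied between libraries. If reads with several matches were dropped, that share also depends on how unique each copy is. Of the 100-base windows, 97.8% of those of Mup3 and 61.2% of those of Mup20 occur in no other gene, against 23.9% for Mup7. Mup3 and Mup20 made up 64.6%, 74.4% and 75.3% of Mup counts in WT chow, 61.1%, 67.5% and 75.5% in KO chow and 87.6%, 78.8% and 86.6% in WT FFC. In KO FFC they made up 85.2% and 86.4% in replicates 1 and 4 and 62.9% in replicate 7, so the KO groups overlapped and the WT groups did not. That last library stood apart from the other KO FFC libraries across the cluster: its Mup7 was 2118 CPM against 191 and 222, its Mup1 273 CPM against 43.3 and 38.7, and its Mup sum 19954 CPM against 7545 and 9588. Between genotypes the summed family was 0.75 ± 0.33 higher in KO on chow (edgeR adjusted p = 0.163) and 0.86 ± 0.33 higher on FFC (edgeR adjusted p = 1), and neither passed. The FFC value was 0.33 without KO FFC replicate 7.

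**Figure D3:**
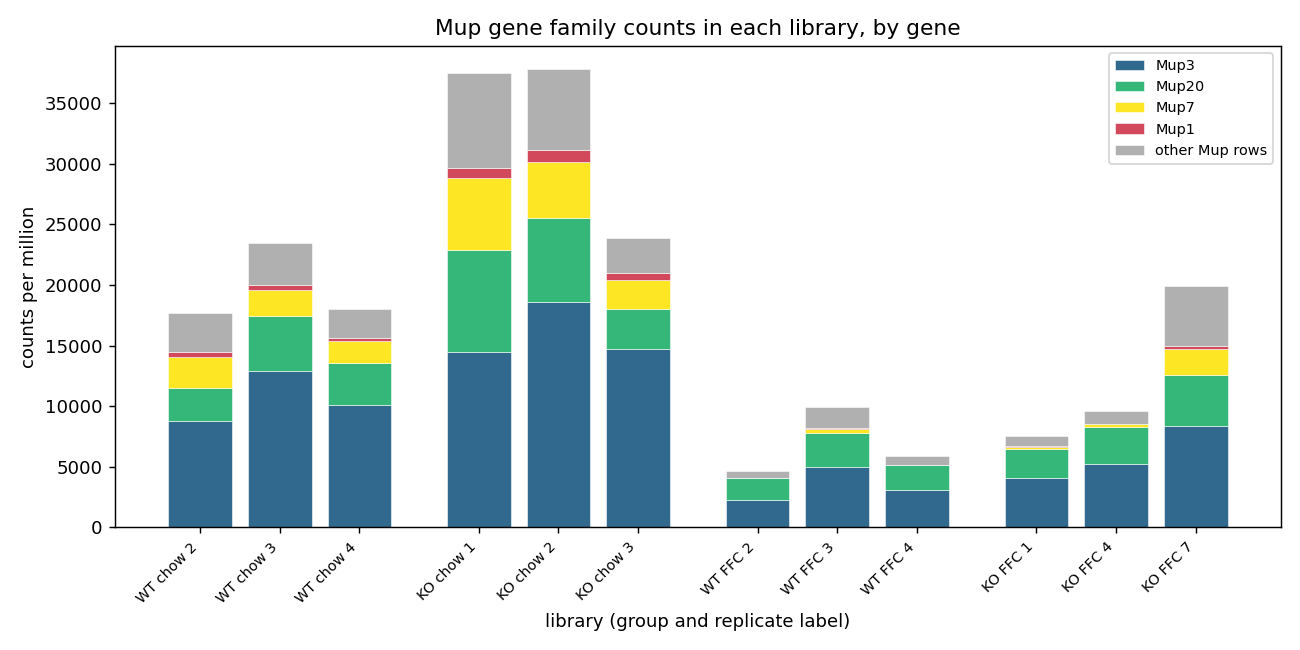
CPM of the tested Mup rows in each of the 12 libraries, stacked by gene, with all rows other than the 4 named genes in grey. The bars of WT FFC and of KO FFC replicates 1 and 4 reach 4625 to 9886 CPM and are mostly Mup3 and Mup20, while KO FFC replicate 7 reaches 19946 CPM with a visible share of Mup7.

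Of 13 tested genes known to be higher in male mouse liver, Mup genes left aside, 10 fell and 0 rose with diet in WT. In KO 6 fell and 0 rose. Over all genes 8.03% fell in WT and 12.8% in KO. Of 10 hepatocyte markers 8 fell in WT and 10 in KO, so falls were not particular to the male-biased list. What part a general fall of hepatocyte transcripts had was not tested. Susd4, a complement regulator, stood at 68.0, 60.5 and 48.2 CPM in WT chow and at 5.23, 8.33 and 7.55 CPM in WT FFC (log2 -3.07 ± 0.24, edgeR adjusted p = 1.57e-06). In KO it went from 80.9, 60.9 and 50.2 to 15.5, 14.0 and 21.1 CPM (log2 -1.92 ± 0.23, edgeR adjusted p = 6.14e-05). Cyp7b1, the oxysterol 7-alpha-hydroxylase, fell by 2.95 ± 0.31 in WT and by 1.55 ± 0.30 in KO on the log2 scale (edgeR adjusted p = 1.9e-05 and 0.00159). Serpina1e, one of several near-identical antitrypsin genes whose reads may be exchanged, fell by 4.52 ± 0.56 and by 3.94 ± 0.54 (edgeR adjusted p = 0.000421 and 0.000597). Nudt7, a peroxisomal coenzyme A hydrolase, fell by 1.47 ± 0.26 in WT (edgeR adjusted p = 0.00123), with a KO value of -0.40 (edgeR adjusted p = 0.26). The calls of Susd4, Cyp7b1 and Serpina1e in both genotypes held with each library left out. The KO count rose to 9 without KO FFC replicate 7.

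Genes known to be higher in female liver showed no common direction. Of 11 tested, 3 rose and 1 fell in WT, and 2 rose and 4 fell in KO. Over all genes 8.76% rose and 8.03% fell in WT, and 13.7% rose and 12.8% fell in KO, so the single WT fall and the KO rises were near the share over all genes. Cyp2b13 went from 11, 1 and 0 counts in the WT chow libraries to 248, 298 and 266 in WT FFC (edgeR adjusted p = 0.000253), and from 3, 0 and 2 to 240, 189 and 61 in KO (edgeR adjusted p = 0.00023). Hao2 had 5, 0 and 8 counts in WT chow and 87, 26 and 68 in WT FFC, and 0 in all KO chow libraries against 20, 33 and 17 in KO FFC. Its WT call (edgeR adjusted p = 0.031) was lost without WT chow replicate 2 or 3 or WT FFC replicate 2 or 4 (0.0767, 0.0799, 0.142 and 0.103). Cyp3a44 fell in both genotypes (log2 -1.71 and -2.29, edgeR adjusted p = 0.013 and 0.00207), in WT not without WT FFC replicate 2 or 3 (0.0663 and 0.0623), and the Cyp3a genes share sequence among themselves. Cyp17a1, a steroid hydroxylase, stood at 4.66, 4.27 and 4.92 CPM in WT chow, 41.8, 24.4 and 28.4 in WT FFC, 4.66, 8.92 and 7.57 in KO chow and 4.78, 11.2 and 9.92 in KO FFC. It rose in WT (log2 2.77 ± 0.32, edgeR adjusted p = 3.11e-05), had a KO log2 change of 0.29 ± 0.30 (edgeR adjusted p = 0.507), and was lower in KO than in WT on FFC (log2 -1.87 ± 0.30, edgeR adjusted p = 0.0471). That last call held without KO FFC replicate 4 and was lost without any one of the other FFC libraries (edgeR adjusted p from 0.0526 to 0.467). It was also lost with median-ratio size factors, with a replicate block and with only the FFC groups fitted (edgeR adjusted p = 0.0524, 0.0503 and 0.144).

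**Figure D4:**
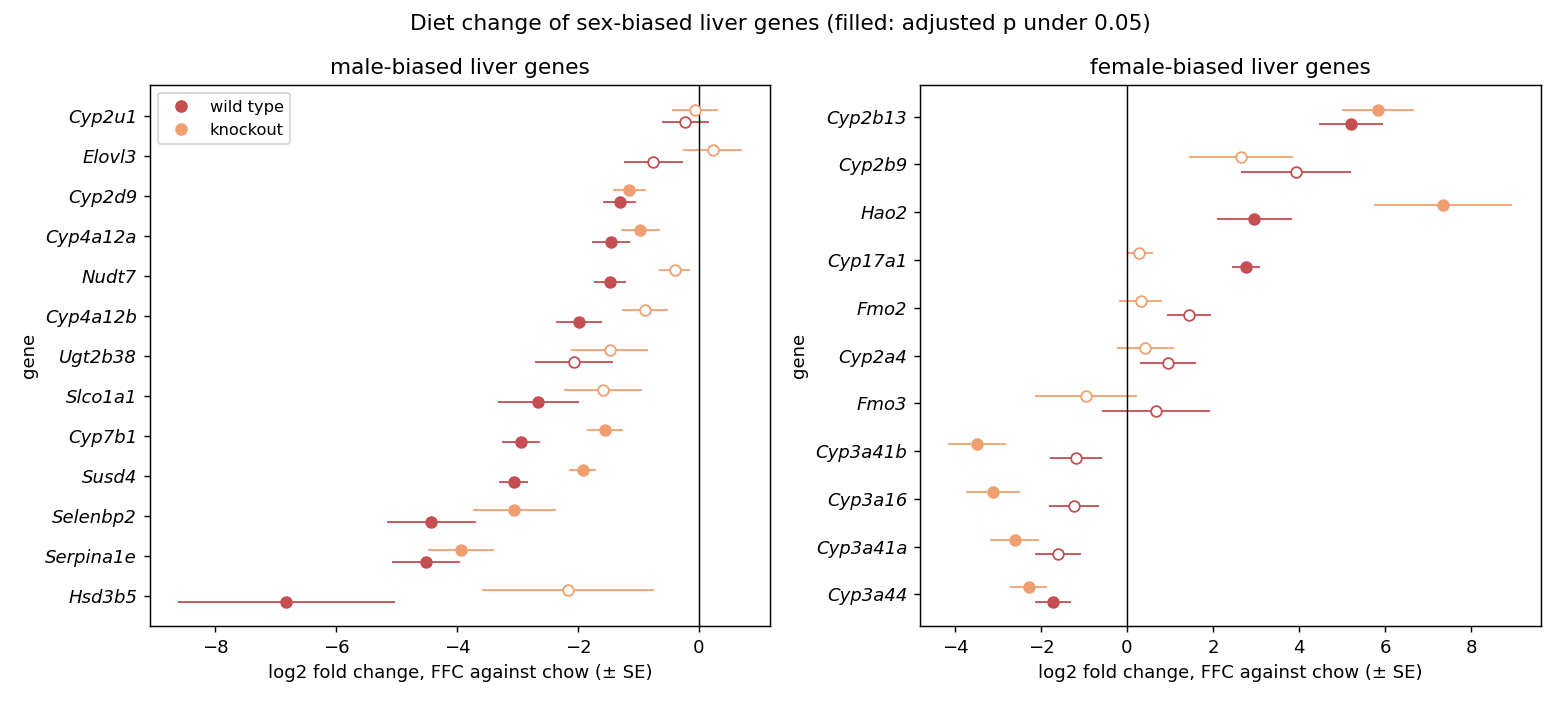
Log2 fold change of FFC against chow with its SE for the tested genes of the male-biased (left, 13 genes) and female-biased (right, 11 genes) lists in WT and KO liver; filled points have an edgeR adjusted p under 0.05. All WT points of the male-biased list lie below 0, 10 of them filled, while the female-biased list spreads to both sides; the KO value of Hao2 stands against chow libraries with 0 counts and has no interpretable size.

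Around the receptor, 13 further signalling genes were tested. In WT 4 rose and 1 fell with diet, and in KO 4 rose and 1 fell, and 1 fall in 13 was no more than the share of all genes that fell (8.03% in WT and 12.8% in KO). The shares that rose were 8.76% and 13.7% over all genes. Lepr, the leptin receptor, went from 1.20, 2.53 and 1.20 CPM to 8.04, 6.72 and 8.25 CPM in WT (log2 2.22 ± 0.51, edgeR adjusted p = 0.00725) and rose by 3.14 ± 0.55 in KO (edgeR adjusted p = 0.000787). The phosphatase gene Ptpn6 rose by 0.72 ± 0.20 and 0.92 ± 0.21 (edgeR adjusted p = 0.0233 and 0.00401). In WT, Ptpn6 missed the threshold without WT chow replicate 2 or 3 or WT FFC replicate 2 or 4 (0.0668, 0.118, 0.0893 and 0.0838). With GC and length offsets it missed too (edgeR adjusted p = 0.126). Ptpn1, another phosphatase, rose in WT (log2 0.73 ± 0.21, edgeR adjusted p = 0.0212) and was higher in KO than WT on chow (log2 0.90 ± 0.21, edgeR adjusted p = 0.0235). Its WT diet call was lost without WT chow replicate 3 or 4 or WT FFC replicate 2 or 4 (0.0736, 0.0726, 0.0787 and 0.0789), and its chow call without WT chow replicate 2 or 4 (0.0712 and 0.0568). GC and length offsets also removed the WT diet call (edgeR adjusted p = 0.354). A replicate block and a fit of only the chow groups removed the chow call (edgeR adjusted p = 0.0744 and 0.157). Of the other SOCS genes tested, 0 of 5 passed in WT by edgeR and by DESeq2 (1 at an unadjusted p under 0.05) and 1 of 5 in KO, Socs5, which rose by 1.00 ± 0.36 (edgeR adjusted p = 0.0465). That call was lost without any KO library except KO chow replicate 3 (edgeR adjusted p from 0.076 to 0.122). It was also lost with median-ratio size factors, a replicate block, only the KO groups fitted, and GC and length offsets (edgeR adjusted p from 0.0534 to 0.366). With 13.7% of all genes higher in KO, 1 call in 5 was near the share over all genes. The transcription factors Bcl6, Cux2, Trim24 and Onecut1, known from mouse liver to act on sex-biased genes, gave 0 of 4 edgeR calls in either genotype, with 1 in WT and 2 in KO at an unadjusted p under 0.05, and DESeq2 called 1 in each. Bcl6 stood at 4.47, 10.1 and 19.4 CPM in WT chow and at 56.1, 58.3 and 51.7 CPM in WT FFC without overlap (log2 2.29 ± 0.84, edgeR adjusted p = 0.102), and its KO groups overlapped.

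In the wider IGF axis, Igfbp2, an IGF carrier, fell beside Igf1. It went from 424, 597 and 433 CPM to 74.4, 110 and 138 CPM in WT and from 766, 639 and 698 to 155, 149 and 168 CPM in KO (log2 -2.17 ± 0.22 and -2.16 ± 0.22, edgeR adjusted p = 1.16e-05 and 1.49e-05). Igfbp3, the carrier that forms the plasma complex with Igf1 and Igfals, and Igfbp7 rose in both genotypes (Igfbp3 log2 1.37 ± 0.34 and 1.20 ± 0.34, edgeR adjusted p = 0.0112 and 0.016). The Igfbp3 calls were lost without WT chow replicate 2 or 4 in WT (0.0507 and 0.0574) and without KO chow replicate 2 or 3 or KO FFC replicate 1 in KO (0.0711, 0.0603 and 0.0696), and the KO call of Igfbp7 without KO chow replicate 2 or KO FFC replicate 1 (0.0528 and 0.0672). With only the KO groups fitted the KO call of Igfbp7 was lost too (edgeR adjusted p = 0.0529). Igfbp4 fell in KO (log2 -1.26 ± 0.20, edgeR adjusted p = 0.000365), with a WT value of -0.45 (edgeR adjusted p = 0.125). On chow its level was higher in KO than in WT (log2 0.82 ± 0.20, edgeR adjusted p = 0.0258). That chow call was lost in 7 of 14 alternatives. On FFC the log2 difference between genotypes was 0.01 ± 0.19. In all, 2 of the 11 tested genes rose and 1 fell in WT, and 3 rose and 2 fell in KO. With 8.76% of all genes higher and 8.03% lower in WT, and 13.7% and 12.8% in KO, the numbers that fell were near the share over all genes.

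A list of 7 lipid uptake and storage genes known in mice to rise when liver growth hormone signalling is lost was mostly higher on FFC. In WT 5 of 7 rose and in KO 6 of 7, with 0 lower in either. Over all tested genes 8.76% rose in WT and 13.7% in KO. The FFC diet is itself rich in fat, and whether growth hormone signalling had a part in these rises was not tested. Cidec, a lipid droplet protein gene, went from 2.45, 1.64 and 2.56 CPM to 122, 113 and 107 CPM in WT (log2 5.68 ± 0.37, edgeR adjusted p = 4.57e-07) and rose by 3.61 ± 0.33 in KO (edgeR adjusted p = 1.45e-05). On chow Cidec was higher in KO than in WT (log2 1.26, edgeR adjusted p = 0.0396), a call lost in 9 of 14 alternatives. Cd36, a fatty acid transporter, rose by 1.69 ± 0.23 and 1.45 ± 0.23 (edgeR adjusted p = 0.000165 and 0.000393). Mogat1 rose by 2.73 and 2.37 on the log2 scale. Cidea had 0 to 9 counts in every chow library and 690 to 1597 in every FFC library.

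Markers of the liver's cell types moved with diet too, and in bulk RNA fewer cells of a type and less RNA per cell cannot be told apart. Of 10 hepatocyte markers, 8 fell in WT and 10 in KO, with 0 rising in either, and their median log2 change was -1.04 and -0.96. Their summed level was 148179 to 216876 CPM in WT chow, 136290 to 203897 in KO chow, 69439 to 91295 in WT FFC and 91738 to 108117 in KO FFC. Of 8 macrophage markers, 7 rose in WT and 8 in KO, and their sum went from 184 to 222 CPM in WT chow to 423 to 501 CPM in WT FFC. Of 7 stellate cell and fibroblast markers, 7 rose in WT and 3 in KO, and of 6 endothelial markers 5 and 4. Of 6 lymphocyte markers 1 rose in each genotype. By edgeR 0 of 5 cholangiocyte markers passed, with 1 in WT and 2 in KO at an unadjusted p under 0.05. Over all tested genes 8.76% rose and 8.03% fell in WT, and 13.7% rose and 12.8% fell in KO. The lymphocyte count was near those shares. Beside the hepatocyte markers' medians stood log2 changes of -0.91 and -0.61 for Igf1, -1.07 and -1.80 for Igfals, and -1.63 and -1.44 for Mup3. Those of Ghr were -0.51 and 0.08. Stat5a had 1.63 and 0.43, where the macrophage medians were 1.44 and 1.20 and the stellate and fibroblast medians 2.35 and 1.79. What part cell composition had in the members' changes was not tested.

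Across the 12 libraries the genes most like Igf1 in pattern, by Pearson correlation of log2 CPM, were the pseudogene Rpl3-ps1 (r = 0.974), the syndecan gene Sdc2 (r = 0.963) and Cyp2c70, which makes muricholic bile acids in mice (r = 0.959). After subtracting group means their correlations with Igf1 were 0.954, 0.790 and 0.826. For Mup20, outside its family, they were Flad1 (r = 0.930), Dolk (r = 0.928) and Csnk2b (r = 0.927). For Socs2 the best were the pseudogene Gm17711 (r = 0.850), the mitochondrial hydratase gene Auh (r = 0.831) and the pseudogene Gm9727 (r = 0.776), both pseudogenes at under 1 CPM and inside other genes, Abracl and Btbd8. The 3 genes named for Mup20 also overlap neighbouring genes. These values describe 12 libraries that share the diet difference, and they carry no test.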

How the data were processed

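Bulk RNA sequencing of whole liver gave 12 libraries in 4 groups of 3. Per the series' design text and the submitters' processing notes, paired-end reads were aligned to mm10 with TopHat 2.1.0 and counted per Ensembl gene with featureCounts 1.4.6, and edgeR 3.18.1 was used. The deposited values are raw counts as the authors made them, not normalized; the counting strand and the treatment of reads with several matches were not given in the sources used here. Total counts were 18873092 to 31154930 per library, and 17776 of 43346 genes had no count. No 2 libraries were identical.

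From these counts, edgeR 4.0.16 (R 4.3.3) was run on all 12 libraries with group means: filterByExpr by group, TMM scaling, robust quasi-likelihood fits and two-sided quasi-likelihood tests, with Benjamini-Hochberg adjustment over all 16283 tested genes and a threshold of 0.05. Levels are CPM over TMM-scaled library sizes, and SE is the log2 change divided by the root of F. Alternatives were median-ratio size factors, no filter, DESeq2 1.42.0, a replicate block, fits of the 2 groups alone, each library left out and all Mup rows summed. Total-count scaling and offsets for GC content and length were added after seeing the data. The WT diet comparison was also run on simulated counts that lacked the extra scatter of single genes. That run does not vouch for genes as scattered as Cish or Socs2. Members and gene lists were chosen with earlier results of these data known. All 10 members were named. From each list up to 4 genes with the lowest p in a diet comparison were named, except 1 that is not reported here, and from the Mup family those with the largest counts or past the threshold. For 3 members the 3 genes with the highest Pearson r of log2 CPM (prior count 2) were named. Stat3 and genes of cell type lists were named for context. Promoter sequences are RefSeq windows of GRCm38.p6.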

Additional observations from a re-analysis of the deposited data

Results flagged for a closer look

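The diet effect on Cyp17a1, a steroid hydroxylase of the female-biased list, differed between the genotypes. The test of the difference gave -2.48 ± 0.43 on the log2 scale (edgeR adjusted p = 0.0467), with a rise in WT (log2 2.77) and a KO value of 0.29. The 3 WT FFC libraries stood at 41.8, 24.4 and 28.4 CPM, above all other libraries, which ranged from 4.27 to 11.2 CPM. Over 19 alternatives the difference kept its sign, from -2.71 to -2.19, and lost the threshold in 10, with adjusted p from 8.21e-09 to 0.2. Those included leaving out any WT chow library (0.111, 0.11 and 0.0932), any WT FFC library (0.2, 0.074 and 0.124) or any KO FFC library (0.0635, 0.126 and 0.08), and total-count scaling (0.0649).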

How the results depend on the processing

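Of the 10 calls among the growth hormone axis genes, 136 alternative values were computed: 111 kept the call, 25 kept the direction and missed the threshold, and 0 reversed. The calls of Igf1, Stat5a and Mup3 in WT and of Igfals and Mup3 in KO held under every alternative run. The number of the 10 genes called was 5 and 4 for diet in WT and KO, 1 for genotype on chow, and 0 for genotype on FFC and for the difference of diet effects. Without the filter these became 8 in WT, 5, 2 and 3 for the last 3, with 25570 genes tested and the estimated prior degrees of freedom infinite, against 9.57. With only the 2 groups compared they were 8 in WT, 2 in KO and 0 for genotype on chow, and with DESeq2 2 for genotype on chow. With total-count scaling or GC and length offsets, 0 were called for genotype on chow. With 1 library left out they ranged from 0 to 3 for genotype on chow and from 2 to 4 in KO. The cause was not tested.

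No label ties a replicate number to an animal or day, and the samples were not treated as paired in the reported fit. Between groups that share a diet or a genotype, deviations of same-numbered libraries from their group means correlated from -0.12 to 0.09. With 3 libraries a group, these values cannot exclude a pairing that touches few genes. With the replicate block, 2 genes were called in KO, 0 for genotype on chow and 1 for the difference of diet effects, and all genes called for genotype on chow went from 1185 to 183. The block put Ghr and Cish in WT (edgeR adjusted p = 0.0286 and 0.00217) and the Cish difference of diet effects (0.0203) past the threshold. Under the block Igfals on FFC turned to -0.37 and the Mup3 difference of diet effects to -0.077.

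Signs that turned belonged to values short of the threshold in the reported fit, and of them Ghr in KO passed with the sign turned. With total counts Stat5b in KO was 0.21. With GC and length offsets Stat5b was -0.20 in WT, Ghr -0.57 and Socs2 -0.46 in KO, Ghr 0.082 and Igf1 0.30 for genotype on chow, Stat5b 0.0019 for genotype on FFC, and the difference of diet effects -0.067 for Igf1 and -0.14 for Mup3. With 1 library left out, genotype on chow ranged from -0.21 to 0.014 for Igf1 and from -0.79 to 0.083 for Socs2, and diet in KO from -0.058 to 0.19 for Ghr, -0.075 to 0.77 for Socs2 and -0.93 to 1.39 for Cish. The difference of diet effects ranged from -0.59 to 0.023 for Mup20, -0.16 to 0.55 for Mup3 and -0.41 to 0.49 for the Mup family sum, and genotype on FFC from -0.0098 to 0.28 for Igf1. Among the lists, the WT count of protein-coding Mup genes called went from 4 to 17 without the filter and 9 with DESeq2, and the 5 WT calls around the receptor to 2 without WT FFC replicate 2 or 4. Depth limits the genes with few counts, such as Hao2 and Cyp2b13 on chow.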

Other observations

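Of 30 pseudogene rows 14 were tested. In WT 1 fell and 0 rose on FFC, and in KO 3 fell and 2 rose. Over all tested genes 8.03% fell in WT, and 12.8% fell and 13.7% rose in KO, so the WT fall and the KO rises were near the share over all genes. Mup-ps19 had log2 changes of -0.69 in WT and -1.39 in KO (edgeR adjusted p = 0.00453 in KO), and Mup-ps21 fell by 1.77 in KO (edgeR adjusted p = 0.00571). Of the 100-base windows of Mup-ps19, 23.3% occur in no other gene, so its reads and those of other copies may be exchanged. For Mup-ps21 that share was 100%.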
